A study of Mus musculus with 24 samples.

Results

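The interferon response genes described here are 49 genes that cells switch on when they meet interferon or viral nucleic acid. They were chosen by symbol, from a list of antiviral effectors, sensors and transcription factors. All 49 symbols were found among the 46093 gene symbols of each of the 2 count tables, 1 for males and 1 for females. After a filter on low counts, 46 members could be tested in males among 14873 genes, 44 in females among 11830 genes, and 41 in both.

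The samples were livers of C57BL/6 mice, either wild type (WT) or lacking Cyp2b cytochrome P450 genes (labelled Cyp2b-null, here null). Mice ate a normal chow diet (ND) or a high-fat diet (HFD) with 60% fat for 10 weeks, and each combination of sex, genotype and diet had 3 libraries, 24 in all. No source used here gives the ages of the mice or the way the null allele was made. Whether the 3 libraries of a group came from 3 mice is also not stated, and a p-value here reflects library-to-library spread, part of which may be technical. For males, RNA came from the RNeasy Plus Universal extraction and libraries from TruSeq Total RNA. For females, extraction was by Trizol and libraries were NEB Next Ultra RNA. Sex and library preparation therefore cannot be told apart, and levels are compared within a sex only.

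Interferons are secreted proteins that warn cells of infection. Type I interferons bind a receptor of Ifnar1 and Ifnar2 and, through the kinases Jak1 and Tyk2, activate a factor containing Stat2 and Irf9 that binds the interferon-stimulated response element (ISRE) in promoters. Interferon gamma, made by T and NK cells, acts through Ifngr1 and Ifngr2 on genes with gamma-activated sites (GAS) in their promoters. In liver, hepatocytes, Kupffer cells (the resident macrophages) and endothelial cells all respond to both types.

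Of the 49 members, edgeR's quasi-likelihood test called 1: Ifit1bl1 was 8.75-fold higher in males labelled null than in WT males on chow. For diet, edgeR called no member, whereas DESeq2 called Bst2 in WT males and Rsad2 and Ifit3b in males labelled null. Without the filter on low counts, edgeR called 7 members in null females. Shares of all tested genes given below are those of edgeR with the filter and all libraries. The shares for DESeq2, for other settings or with a library left out are not given, so counts there have no background beside them. In females the members' high-fat values lay above the chow values in most cases, with a median log2 difference of 0.79 in nulls and 0.54 in WT. Without null high-fat library 3 the null median was 0.36, so the larger median in nulls rested on 1 library.

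Library facts that touch these results came first. Total counts per library ran from 8282510 to 20176050 in males and from 2005120 to 2661836 in females. Cyp2b9 gave 788 to 1245 counts in the WT female libraries and 0 to 17 in the null ones, and Cyp2b13 gave 565 to 1138 against 0. In males no targeted gene passed the test in either genotype comparison, and Cyp2b13 gave 7 to 89 counts in libraries labelled null and 23 to 85 in WT, so the genotype is given for males as labelled. The genotype field of 6 female libraries contradicted their titles, and titles were followed. Male null chow library 1 stood apart, with 32.8% of its counts on mitochondrial genes (at most 7.91% in the other male libraries) and a B and plasma cell marker sum of 68.8 CPM (counts scaled to the library total; at most 9.01 elsewhere). Female null high-fat library 3 stood apart in the members themselves, as shown further on, and WT chow library 1 held the highest female mitochondrial share, 14.4%. Hepatocyte markers such as Alb and Apoa1 were present in every library. In bulk tissue, fewer cells of a type and less RNA per cell cannot be told apart.

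Many, but not all, of the members whose promoters could be looked up held the core letters of an ISRE. RefSeq windows on GRCm38.p6, from 250 bases before to 50 after a transcript start, were found for 37 members. The letters GAAANNGAAA, the core pair of an ISRE, were searched on both strands. They occurred in the windows of 23 of the 37 members (62.2%) against 3.99% of all 27025 genes with a window. The letters TTCNNNGAA, the GAS core, occurred in 11 of 37 (29.7%) against 9.55% of all genes. In Bst2, Gbp3, Irgm1, Isg15, Oas1a and Oas1g the pair's matches overlapped each other. A match describes the letters only, not a bound site.

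Printed below are a few windows with ISRE pairs, from the IFIT genes, Isg15 and a guanylate-binding protein, and, for contrast, Irf1, which held a GAS core and no ISRE pair. Ifit1bl1 is shown because it is the member that passed the test, a choice made after its values were seen. Each sequence is upstream of the start, 5′ to 3′ on the gene's own strand, with the matched letters in capitals.
Ifit1bl1 (chr19:34601969-34602098, minus strand): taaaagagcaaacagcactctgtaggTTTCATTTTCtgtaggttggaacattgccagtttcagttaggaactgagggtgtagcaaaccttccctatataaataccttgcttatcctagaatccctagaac
Ifit1 (chr19:34640759-34640888, plus strand): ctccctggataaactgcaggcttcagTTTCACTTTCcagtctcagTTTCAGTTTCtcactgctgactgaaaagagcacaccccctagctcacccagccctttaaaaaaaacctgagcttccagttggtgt
Ifit3 (chr19:34583359-34583528, plus strand): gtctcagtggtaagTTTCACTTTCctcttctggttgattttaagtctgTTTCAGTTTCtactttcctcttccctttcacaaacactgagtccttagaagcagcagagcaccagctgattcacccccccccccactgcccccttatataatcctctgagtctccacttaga
Isg15 (chr4:156200819-156200948, minus strand): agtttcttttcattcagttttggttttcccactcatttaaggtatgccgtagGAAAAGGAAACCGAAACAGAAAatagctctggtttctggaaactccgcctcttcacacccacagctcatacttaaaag
Gbp3 (chr3:142559914-142560043, plus strand): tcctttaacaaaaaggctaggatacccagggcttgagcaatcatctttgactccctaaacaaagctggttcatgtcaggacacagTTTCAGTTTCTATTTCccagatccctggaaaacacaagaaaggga
Irf1 (chr11:53769844-53770013, plus strand): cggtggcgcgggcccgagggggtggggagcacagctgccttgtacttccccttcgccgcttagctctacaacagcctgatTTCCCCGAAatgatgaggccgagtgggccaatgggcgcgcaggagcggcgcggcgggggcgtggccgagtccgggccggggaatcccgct

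Ifit1bl1, in the window printed, and Ifit1 each carried a pair at bases -104 to -95 from the start, and Ifit1 a second one at -85 to -76. A window at another Ifit1bl1 start held a pair at -23 to -14. Isg15 held 3 pairs that overlapped, the first at -78 to -69, the next at -72 to -63. Of the 37 members, 9 held 2 or more pairs within 1 window: Bst2, Gbp3, Ifit1, Ifit3, Ifit3b, Irgm1, Isg15, Oas1a and Oas1g. Ifit1bl1 and Trim30a, which are not among the 9, each held 1 pair in each of 2 windows.

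Transcripts of interferons, which could switch the members on, were scarce in these libraries. Of 12 interferon genes looked up, 11 had 0 counts in all 12 male libraries and 10 had 0 in all 12 female libraries, and none passed the filter on low counts. At this depth, that does not show absence. The receptor side was present. Ifnar1 ran from 38.4 to 60.7 CPM in males and 22.3 to 41.5 in females. Ifngr1 ran from 11.8 to 22.0 and from 8.88 to 25.6 CPM. Of 14 receptor, kinase and regulator genes, 13 could be tested in males and 12 in females, and edgeR called none in any comparison, with at most 1 of them higher or lower at an unadjusted p under 0.05.

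The members were first followed library by library, as the median over the tested members of each member's log2 CPM less its own mean over the sex. Male medians ran from -0.27 in WT chow library 3 to 0.31 in null high-fat library 1, and the diets overlapped. Male WT chow libraries were at 0.00, -0.26 and -0.27 and WT high-fat libraries at -0.08, 0.24 and 0.10. The female spread was wider. Female WT chow libraries were at 0.11, -0.51 and -0.47, and WT high-fat libraries at 0.15, 0.42 and -0.05. Null chow libraries were at -0.02, -0.47 and -0.37, and null high-fat libraries at 0.02, 0.24 and 0.92. In both female genotypes library 1 on chow lay close to the lower high-fat libraries.

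**Figure D1:**
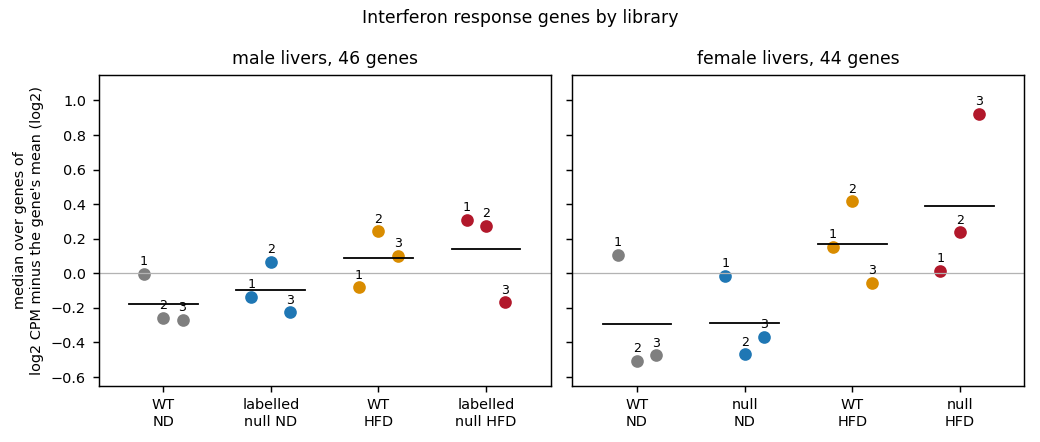
Median over tested members of log2 CPM less the member's own mean over the 12 libraries of that sex (y axis), for each library (points, numbered by replicate) in the 4 groups of males (left, 46 members) and females (right, 44 members); horizontal lines are group means. Female null high-fat library 3, at 0.92, is the highest point.

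Female null high-fat library 3 was above the member's own mean for 41 of 44 members and held the highest level of 29. Its summed member level was 3132 CPM against 1049 to 2044 in the other female libraries, and 2175 CPM once Iigp1 was left out. Its MHC class II sum was 437 CPM, against at most 263 elsewhere, and its Kupffer cell and macrophage marker sum 1010 CPM against at most 873. T and NK cell markers did not set it apart, at 12.8 CPM in a female range of 7.49 to 19.4. The part of these cells in its member levels was not tested. Counts, medians and named differences that rest on this library are therefore given also without it.

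Male null chow library 1, with the high mitochondrial share, held the highest level of 16 members and the lowest of 15, so that single members there lay far from the other null chow libraries in either direction. Stat2, for example, was at 367 CPM in it and at 81.2 and 125 in the other null chow libraries, and Irgm1 was at 8.56 against 33.5 and 22.2.

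**Figure D2:**
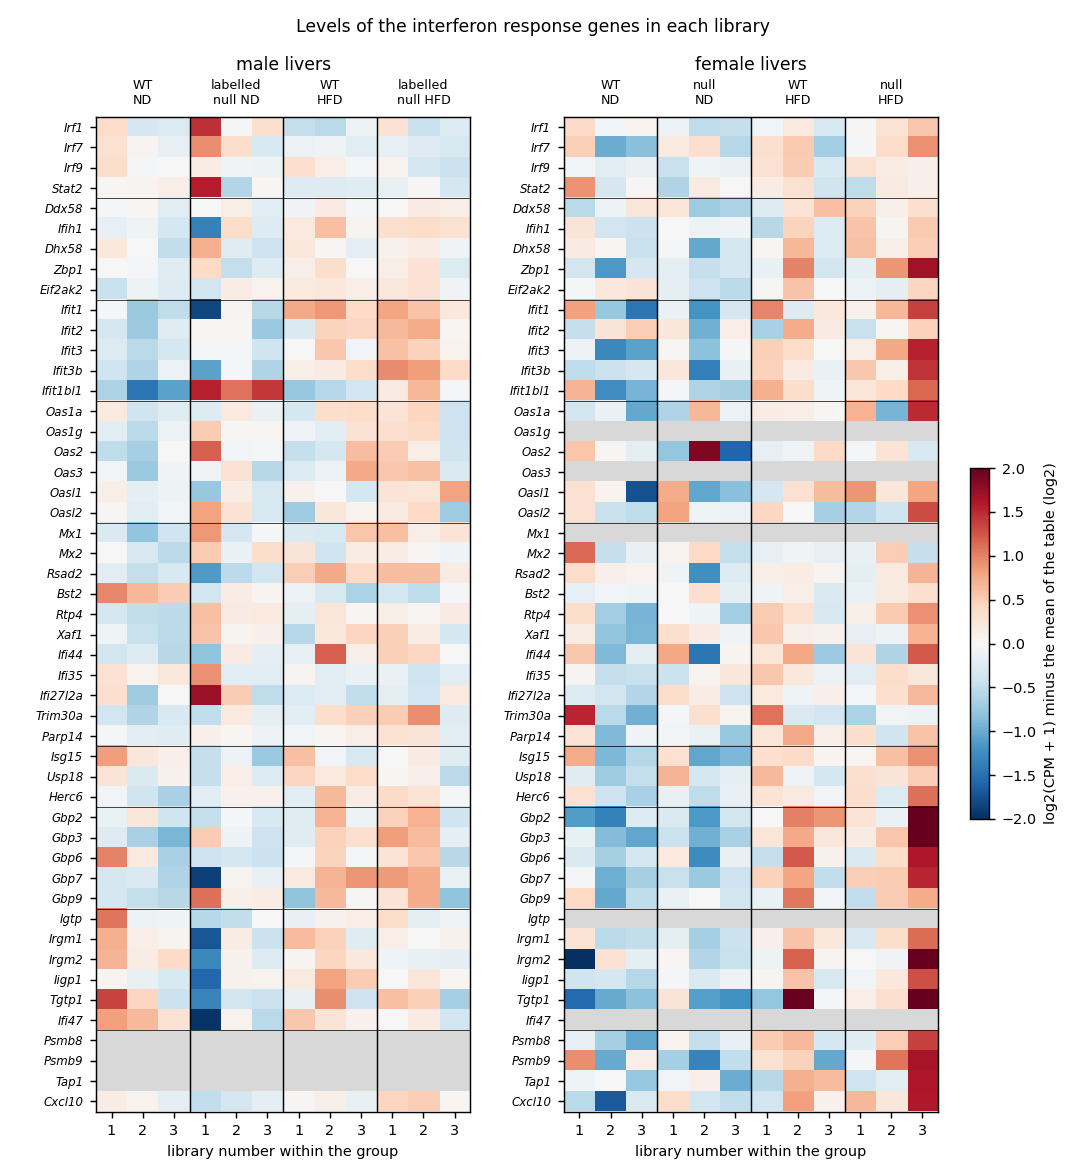
Log2 of CPM plus 1 of each member (rows, grouped by role) in each library (columns, grouped by sex, genotype and diet) less the member's mean over that sex. Colours stop at -2 and 2 and grey marks members below the filter on low counts. The counts that follow are from log2 levels with a prior count of 2, not from the values drawn. Female null high-fat library 3 is above the mean for 41 of 44 members, and male null chow library 1 holds the highest level of 16 members and the lowest of 15.

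The effect of the genotype label in males on chow was the comparison that gave the single call. On chow, edgeR called 1 member of 46 (Ifit1bl1, higher in null), where 0.0134% of all tested genes were called. In the same fit, 3 members were higher and 6 lower in libraries labelled null at an unadjusted p under 0.05, where 12.7% of all genes were higher and 5.84% lower. DESeq2 called 2 members, Ifit1bl1 and Rtp4. The members' median log2 difference was 0.14, with 27 of 46 above 0, beside 0.06 and 53.7% over all genes, so as a list the members lay near the background. Without library 1 of the null chow group, 1 member was still called, with 3 higher and 5 lower.

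Markers of several cell types also differed between these male chow groups. Of 9 hepatocyte markers, 8 lay below 0 in libraries labelled null, with a median of -0.60 and 4 at an unadjusted p under 0.05. Their sums were 43660 to 88300 CPM in null and 115700 to 148100 in WT. Without null chow library 1, 7 of the 9 lay below 0, with a median of -0.55 and 5 at that threshold. All 4 tested plasmacytoid and dendritic cell markers lay above 0, with a median of 1.496, which was 0.67 without that library (sums of 10.6 to 37.2 CPM in null and 6.06 to 9.17 in WT). All 5 tested B and plasma cell markers also lay above 0, with a median of 1.91 that was 0.63 without it. Their sums overlapped, at 6.93 to 68.8 CPM in null and 2.27 to 7.18 in WT. edgeR called none of these markers, and their part in the members' values was not tested. Neutrophil marker sums were 4.77 to 12.3 CPM in null and 2.14 to 3.46 in WT, and their part was not tested either. Sums of the other cell type lists overlapped between these groups.

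On the high-fat diet no male member was called between genotypes by edgeR or DESeq2, and 0% of all genes were called. At an unadjusted p under 0.05, 1 member was higher (background 1.41%) and 0 were lower (background 0.706%). The median was 0.05, with 28 of 46 members above 0, beside -0.01 and 48.5% of all genes.

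The high-fat diet in WT males gave no edgeR call among members, and edgeR called 0% of all genes, while DESeq2 called Bst2. On the high-fat diet 10 of 46 members were higher and 1 was lower at an unadjusted p under 0.05, where 3.61% of all genes were higher and 2.88% lower. The median was 0.33, with 30 of 46 members above 0, beside 0.02 and 51.9%. Of the 10, 4 were antiviral effectors, 2 were IFIT proteins and 2 were guanylate-binding proteins. Leaving out 1 library at a time moved the count of 10 to between 1 and 11.

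In males labelled null the diet again gave no edgeR call among members, and edgeR called 0% of all genes, while DESeq2 called Rsad2 and Ifit3b. At an unadjusted p under 0.05, 8 members were higher and 3 lower, with 2.65% of all genes higher and 8.49% lower. The median was 0.23, with 30 of 46 above 0, beside -0.01 and 49.5%. Without null chow library 1, 9 were higher and 1 lower, and 35 of 46 lay above 0. The diet and genotype comparisons within a sex share libraries and are not independent of each other.

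The test of whether the diet effect differed between male genotypes (the interaction) called no member with edgeR or DESeq2, and 0% of all genes. At an unadjusted p under 0.05, 2 members were higher (background 1.44%) and 2 lower (background 3.21%), and the median was -0.14 beside -0.05 over all genes. Kupffer cell and macrophage marker sums in males overlapped between all groups, at 244 to 335 CPM in WT chow, 229 to 522 in null chow, 244 to 417 in WT high-fat and 286 to 510 in null high-fat libraries.

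Loss of Cyp2b in females on chow called no member with edgeR or DESeq2, where 0.127% of all genes were called. At an unadjusted p under 0.05, 0 members were higher (background 2.98%) and 1, Irf1, was lower (background 3.36%). The median was 0.09, with 25 of 44 members above 0, beside -0.02 and 47.4%. On the high-fat diet no member was called with edgeR or DESeq2 (background 0.0169%), and 0 were higher (background 0.989%) or lower (background 1.45%) at an unadjusted p under 0.05. The median there was 0.34, with 34 of 44 above 0, beside -0.01 and 49.1%, but without null high-fat library 3 it was -0.01 with 22 of 44 above 0.

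The high-fat diet in WT females called no member with edgeR or DESeq2, and 0.0169% of all genes were called. There were 5 of 44 members higher and 0 lower at an unadjusted p under 0.05, against 1.67% and 1.82% of all genes. The median was 0.54, with 37 of 44 above 0, beside 0.00 and 49.7% over all genes. With 1 library left out, the count of 5 ran from 0 (without WT chow library 2) to 16 (without WT chow library 1). That WT chow library 1 had the highest female mitochondrial share. The share of all genes in those fits is not given, so the moves are not read as particular to the members. The median ran from 0.34 (without WT high-fat library 2) to 0.81. Of 18 Kupffer cell and macrophage markers, 17 lay above 0 with a median of 0.47 and 1 at an unadjusted p under 0.05 (sums of 299 to 610 CPM on chow and 465 to 873 on the high-fat diet). All 4 tested MHC class II genes also lay above 0, with a median of 1.03. The part of these cells in the members' values was not tested.

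In null females the diet comparison called no member with edgeR or DESeq2, and 0% of all genes. Of the 44 members, 19 were higher and 0 lower at an unadjusted p under 0.05, where 2.36% of all genes were higher and 2.44% lower. The median was 0.79, with 41 of 44 above 0, beside 0.01 and 51.3%. Without null high-fat library 3, 3 members (Gbp3, Gbp7 and Psmb9) remained higher at that threshold, the median was 0.36 and 35 of 44 lay above 0. All 18 Kupffer cell and macrophage markers lay above 0 as well, 9 of them at an unadjusted p under 0.05, with a median of 0.78 and sums of 317 to 515 CPM on chow and 580 to 1010 on the high-fat diet. Without that library all 18 still lay above 0, with a median of 0.62 and 0 at that threshold. Their part in the result was not tested. The interaction in females called no member with edgeR or DESeq2 (0% of all genes). At an unadjusted p under 0.05, 2 members were higher (background 1.34%) and 0 lower (background 1.55%), with a median of 0.28 that was -0.13 without that library.

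Interferon-induced genes outside the list were counted the same way. Of 68 such genes, 63 could be tested in males and 61 in females, and edgeR called none in any comparison. In females on the high-fat diet 54 of 61 lay above 0 in WT, with 8 higher and 0 lower at an unadjusted p under 0.05 (1.67% and 1.82% of all genes), and 46 of 61 in null, with 9 higher and 0 lower (2.36% and 2.44%). The median was 0.31 in both genotypes. Without null high-fat library 3, 35 of 61 lay above 0 in null, with 1 higher and 0 lower and a median of 0.11. In males the counts at that threshold were 2 higher and 3 lower in WT (3.61% and 2.88% of all genes) and 5 higher and 3 lower in null (2.65% and 8.49%).

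**Figure D3:**
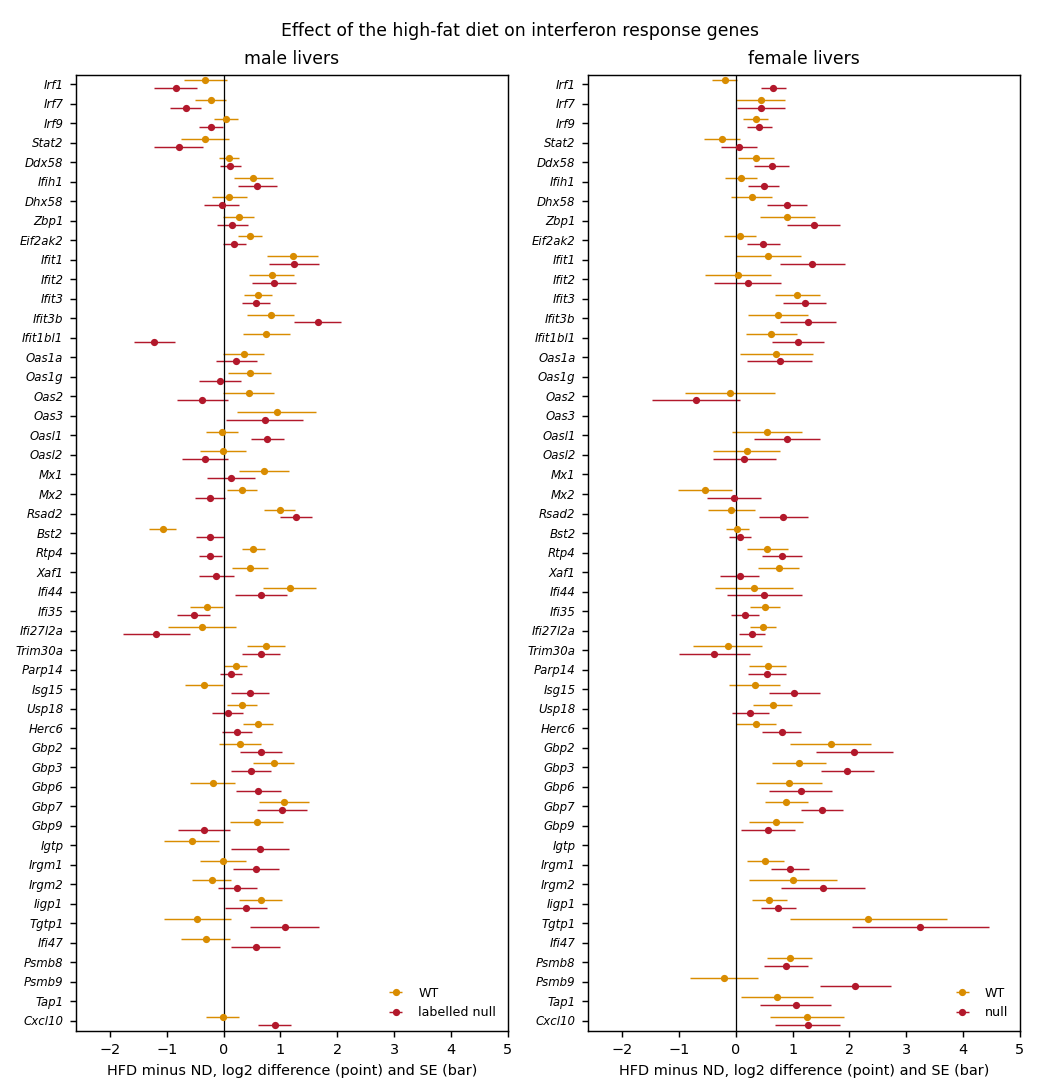
Log2 difference of the high-fat diet from chow (x axis; points with SE bars) for each tested member (rows, by role) in males (left) and females (right), WT and null in separate colours; untested members have no point. In females 41 of 44 members in null and 37 of 44 in WT lie above 0, and in males 30 of 46 in each genotype.

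Whether an effect differed between the sexes was tested in 1 fit of all 24 libraries, in which all 49 members passed the filter among 15043 genes. Only 41 of them had passed it in each sex fitted apart. The others entered through 1 sex, and their difference between sexes rests on low counts in the other. Ifi47, with 0 counts in females, is among them, so the counts and medians over 49 include values that cannot be estimated. No member was called, though Ifit1bl1 was near the threshold for the genotype effect on chow. For that effect 0.0332% of all genes were called, and at an unadjusted p under 0.05, 1 member was higher in females and 4 were lower, where 11.7% of all genes differed in either direction. For the genotype effect on the high-fat diet the shares were 0.0133% and 1.54% of all genes, with 0 members at that threshold. For diet in WT they were 0.00665% and 3.71%, with 2 members higher and 1 lower. For diet in null they were 0% and 4.65%, with 8 members higher in females and 0 lower. Psmb8, which had at most 3 counts in a male library, was 1 of the 8. The member medians of the difference were 0.00, 0.32, 0.25 and 0.54 in that order. Without female null high-fat library 3, the 8 members for diet in null became 3, and the median of 0.54 became 0.08, with 29 of 49 above 0. The median of 0.32 for genotype on the high-fat diet became -0.14 without it, with 19 of 49 above 0. Without male null chow library 1, 4 of 47 members were higher for diet in null. Kit and extraction differ with sex, and their part in these differences cannot be told apart from that of sex.

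Of the transcription factors, Irf1 is itself induced by interferon gamma and Irf7 amplifies type I interferon production, while Stat2 and Irf9 are parts of the ISRE-binding factor. Irf1 (chromosome 11) in females was at 56.0, 40.9 and 44.9 CPM in WT chow libraries and at 39.5, 29.6 and 30.7 in null chow libraries. On the high-fat diet it was at 40.9, 48.7 and 34.2 in WT and 43.4, 51.8 and 62.2 in null. The null chow libraries were thus the lowest of each comparison they entered, without overlap. The genotype difference on chow was -0.51 ± 0.22 (log2, SE; edgeR adjusted p = 0.738), the diet difference in null 0.66 ± 0.22 (0.963) and the interaction 0.85 ± 0.31 (1.0). Without null high-fat library 3 the last values were 0.52 and 0.71. In males the order was the other way on chow, with Irf1 at 52.1, 31.6 and 33.1 CPM in WT and 112, 39.7 and 50.2 in null, groups that overlapped. The female minus male difference in the genotype effect on chow was -1.29 ± 0.45 (adjusted p = 0.337), and that in the diet effect in null 1.51 ± 0.45 (0.965). Without male null chow library 1, which held the 112 CPM, these were -0.68 and 0.90.

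Irf7 ran from 22.6 to 55.0 CPM in males and 24.9 to 95.8 in females, Irf9 from 27.8 to 48.8 and 23.4 to 46.2, and Stat2 from 81.2 to 367 and 54.7 to 155. The highest Stat2 level in each sex was in the library with the highest mitochondrial share of that sex. Apart from that library, male Stat2 lay between 81.2 and 134 CPM. None of the 3 was called in any comparison within a sex.

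The sensors detect foreign nucleic acid. Ddx58 (RIG-I) and Ifih1 (MDA5) bind viral RNA, Dhx58 (LGP2) modulates them, Zbp1 binds Z-form nucleic acid and triggers cell death, and Eif2ak2 (PKR) halts translation on double-stranded RNA. Ddx58 stayed between 28.2 and 37.5 CPM over all 12 male libraries, with group differences of 0.05 to 0.12, and ran from 13.0 to 33.8 in females. Ifih1 was at 32.5, 34.5 and 28.5 CPM in male WT chow and 42.5, 56.5 and 38.2 in WT high-fat libraries, without overlap (log2 difference 0.52 ± 0.34, adjusted p = 0.869), and ran from 18.5 to 41.5 in females. Eif2ak2 in females was at 12.5, 14.97 and 15.5 CPM in WT chow and 11.3, 9.43 and 8.49 in null chow libraries. These did not overlap, with a difference of -0.56 ± 0.29 (adjusted p = 0.811).

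Zbp1 in females was at 16.5, 13.5 and 14.6 CPM in null chow and 16.4, 35.6 and 63.0 in null high-fat libraries, and at 14.4, 7.99 and 14.7 in WT chow and 17.0, 38.7 and 14.4 in WT high-fat libraries. A single WT high-fat library and 2 null high-fat libraries were thus high, while the others stayed near the chow level. Male levels ran from 7.79 to 15.1 CPM for Zbp1, from 17.99 to 30.3 for Eif2ak2 and from 10.2 to 24.9 for Dhx58, which was at 4.49 to 16.7 in females.

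The IFIT proteins bind viral RNA and block its translation, and their 5 genes lie in a cluster on chromosome 19 between 34550694 and 34650009 (GENCODE, GRCm38). Ifit1bl1, an Ifit1-like gene of the cluster (6.45% of its 50-base words occur in other genes, most of them in Ifit1bl2), gave the call. It was at 1.73, 0.541 and 1.02 CPM in male WT chow libraries (20, 5 and 12 counts) and at 11.2, 8.01 and 10.3 in null chow libraries (84, 149 and 158 counts). Every library labelled null lay above every WT library. The log2 difference was 3.13 ± 0.40 (95% interval 2.25 to 4.01, 8.75-fold, edgeR adjusted p = 0.0364), from a mean of 1.10 ± 0.60 CPM (SD, n = 3) in WT to 9.86 ± 1.67 in null.

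On the high-fat diet Ifit1bl1 was at 1.51, 1.85 and 2.26 CPM in WT males and 3.77, 5.70 and 3.17 in males labelled null. These also did not overlap, but the difference of 1.16 ± 0.38 did not pass (adjusted p = 1.0). The diet difference in null was -1.22 ± 0.36 (0.434) and the interaction -1.98 ± 0.54 (0.891), so the smaller genotype difference on the high-fat diet was not shown to differ from that on chow. The chow call was lost with the replicate number as a block (adjusted p = 0.123) and in a fit of the 2 groups compared alone (0.502). It was also lost when any of 3 libraries was left out (WT chow 2, adjusted p = 0.214; WT chow 3, 0.175; null chow 3, 0.162), and held without null chow library 1 (0.0121).

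In females the same gene did not differ by genotype beyond its spread. Ifit1bl1 was at 40.8, 9.98 and 12.6 CPM in female WT chow and 24.8, 16.2 and 15.4 in null chow libraries, which overlapped (-0.17 ± 0.47, adjusted p = 0.987). High-fat libraries were at 41.7, 32.1 and 23.9 in WT and 29.7, 33.3 and 56.9 in null. The female genotype effect on chow was below the male one by -3.28 ± 0.63 (adjusted p = 0.0510).

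**Figure D4:**
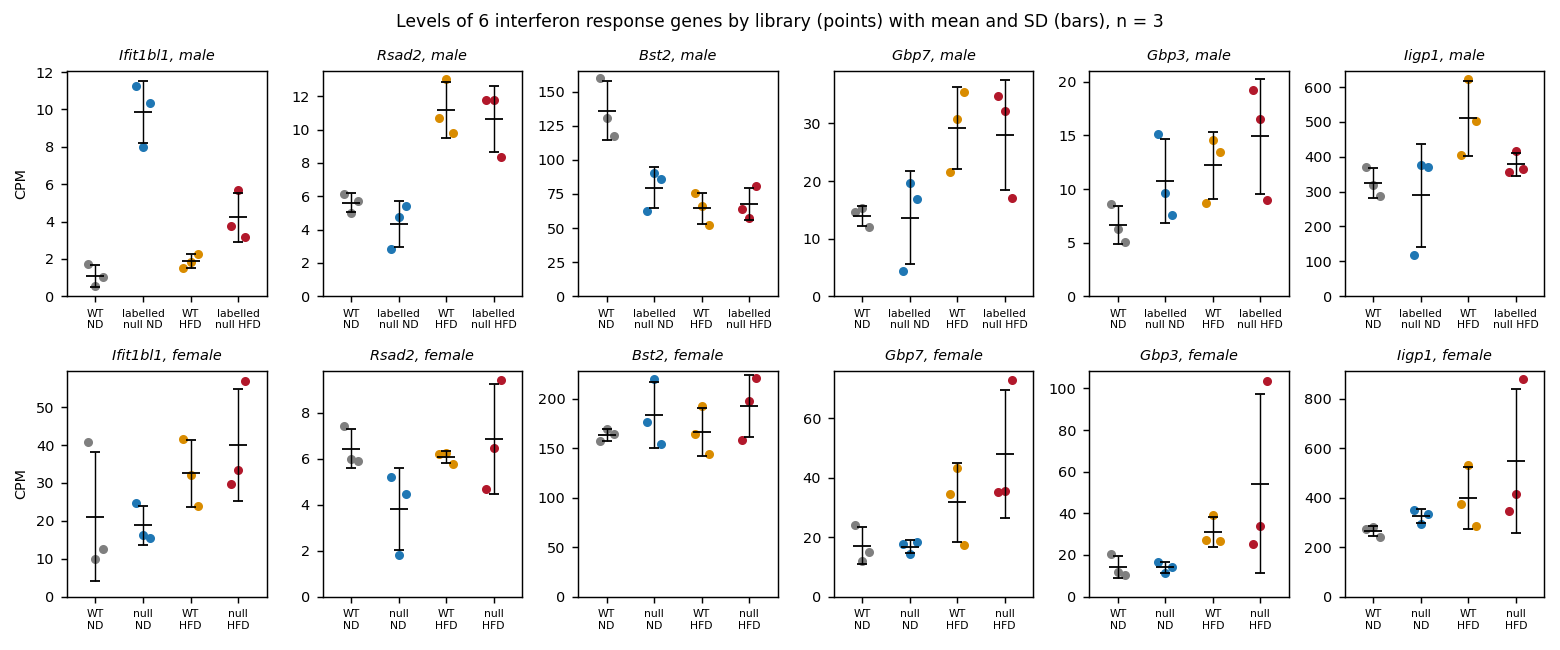
Level in CPM (y axes from 0) of Ifit1bl1, Rsad2, Bst2, Gbp7, Gbp3 and Iigp1 in each library (points) by genotype and diet, in males (top) and females (bottom), with mean and SD of the 3 libraries as bars. Ifit1bl1 in male null chow libraries, at 8.01 to 11.2 CPM, lies above male WT chow libraries at 0.541 to 1.73, and Gbp3 reaches 104 CPM in female null high-fat library 3.

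Of the other IFIT genes, Ifit1, Ifit3 and Ifit3b were separated in males by diet under both genotype labels, without passing edgeR's test. Ifit1 was at 7.53, 4.22 and 5.13 CPM in male WT chow libraries and 13.8, 14.98 and 10.5 in WT high-fat libraries. In libraries labelled null it was at 1.47, 8.06 and 4.97 on chow and 14.1, 12.02 and 9.14 on the high-fat diet. Neither pair of groups overlapped, and the differences were 1.21 ± 0.45 (adjusted p = 0.663) and 1.24 ± 0.45 (0.434). Ifit3b was at 0.669, 2.42 and 1.31 CPM in male null chow and 5.69, 5.25 and 3.56 in null high-fat libraries, again without overlap (1.66 ± 0.41, edgeR adjusted p = 0.358, DESeq2 0.0252). In WT males Ifit3b was at 1.64, 1.30 and 2.22 CPM on chow and 2.79, 2.92 and 3.49 on the high-fat diet. The null high-fat libraries thus also lay above the WT high-fat ones. In females Ifit3b ran from 1.35 to 15.5.

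Ifit3 was the IFIT gene whose high-fat libraries lay above the chow libraries in all 4 diet comparisons. In males it was at 10.6, 8.55 and 9.91 CPM on chow and 12.9, 19.3 and 12.3 on the high-fat diet in WT, and at 12.7, 12.6 and 9.55 and then 19.8, 18.1 and 13.6 in null. In females it was at 20.4, 8.48 and 10.1 and then 31.3, 29.1 and 22.3 in WT, and at 22.6, 12.1 and 21.8 and then 24.6, 38.9 and 67.5 in null. The 4 log2 differences were 0.61 ± 0.25 (0.716, and 0.38 without WT high-fat library 2) and 0.56 ± 0.24 (0.446) in males and 1.08 ± 0.40 (1.0) and 1.21 ± 0.38 (0.963) in females, with adjusted p in brackets. The last was 0.75 without null high-fat library 3. Reads of Ifit3 and Ifit3b are uncertain between the pair, since 51.2% of the 50-base words of Ifit3 and 45.0% of those of Ifit3b occur in other genes. Ifit2 ran from 1.70 to 6.59 CPM in males and 1.35 to 6.66 in females. Its diets overlapped in WT males but not in males labelled null.

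The OAS proteins make the messenger that switches on RNase L. Their 6 genes were at low levels, and none was called. Oasl1, a relative that dampens Irf7 translation, was at 5.75, 11.7 and 8.17 CPM in male null chow and 12.8, 12.5 and 18.9 in null high-fat libraries, without overlap (0.77 ± 0.28, adjusted p = 0.434). Its null high-fat libraries also lay above the WT high-fat ones at 11.1, 10.4 and 7.97 (0.58 ± 0.28, 1.0, and 0.36 without null high-fat library 3). Oas2 was highest in male null chow library 1, at 21.1 CPM, with the other male libraries between 5.09 and 13.9, and in females it ran from 0.809 to 18.9. Oasl2 ran from 3.66 to 12.4 CPM in males and 3.30 to 15.8 in females. Oas1a ran from 2.79 to 5.79 and 1.68 to 14.3 CPM, Oas1g from 1.41 to 4.01 in males, and Oas3 from 0.217 to 2.45. In females Oas1g (0 to 16 counts a library) and Oas3 (1 to 11) were below the filter. Oas1a and Oas1g share 57.6% and 45.7% of their 50-base words with other genes, mostly with each other, so their split is uncertain.

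The antiviral effectors held the members with the smallest p for diet in males. Rsad2 (viperin), which makes a chain-terminating nucleotide against viral polymerases, was at 6.14, 4.98 and 5.72 CPM in male WT chow and 10.7, 13.0 and 9.83 in WT high-fat libraries. In libraries labelled null it was at 2.81, 4.78 and 5.43 on chow and 11.8, 11.8 and 8.37 on the high-fat diet. All 6 high-fat libraries lay above all 6 chow libraries, with differences of 0.99 ± 0.27 (edgeR adjusted p = 0.489) and 1.27 ± 0.28 (edgeR 0.294, DESeq2 0.00538). In females Rsad2 was at 7.41, 5.99 and 5.88 CPM in WT chow, 6.18, 6.25 and 5.77 in WT high-fat, 5.21, 1.80 and 4.45 in null chow and 4.70, 6.48 and 9.43 in null high-fat libraries. WT females thus showed no separation by diet (-0.08 ± 0.41, 1.0), and the sexes' diet effects in WT differed by -1.06 ± 0.47 (1.0). The null chow libraries lay below the WT chow ones (-0.74 ± 0.43, 0.849, and -0.41 without null chow library 2).

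Bst2 (tetherin), which holds budding virions at the cell surface, differed in the other direction in males. It was at 160, 131 and 117 CPM in male WT chow libraries, above all 9 other male libraries, which lay between 52.5 and 90.7. Null chow libraries were at 62.4, 90.7 and 85.7, WT high-fat libraries at 75.4, 65.8 and 52.5 and null high-fat libraries at 63.9, 57.7 and 80.5. The diet difference in WT was -1.08 ± 0.24 (edgeR adjusted p = 0.313, DESeq2 0.00669), the genotype difference on chow -0.77 ± 0.24 (0.213) and the interaction 0.84 ± 0.34 (0.891). In females Bst2 stayed between 144 and 221 CPM in all 12 libraries. The female minus male difference was 0.94 ± 0.32 (0.337) for genotype on chow and 1.11 ± 0.32 (1.0) for diet in WT.

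Rtp4, a membrane protein that binds viral RNA and restrains flaviviruses, was at 13.2, 11.7 and 11.4 CPM in male WT chow and 25.96, 19.0 and 19.4 in null chow libraries, without overlap (0.82 ± 0.21, edgeR adjusted p = 0.185, DESeq2 0.0243). WT high-fat libraries, at 14.6, 20.2 and 17.4, also lay above WT chow (0.52 ± 0.21, 0.703), and the interaction was -0.75 ± 0.29 (0.891). In females Rtp4 was at 21.7, 20.2 and 12.9 in null chow and 23.5, 31.4 and 41.5 in null high-fat libraries. WT females were at 27.8, 13.0 and 10.9 on chow and 31.3, 27.1 and 17.3 on the high-fat diet, which overlapped. Ifi44, an antiviral cytoplasmic protein, was at 2.16, 2.38 and 1.79 CPM in male WT chow and 2.63, 8.37 and 3.397 in WT high-fat libraries (1.17 ± 0.47, 0.716, and 0.52 without WT high-fat library 2). It ran from 1.35 to 13.9 in females.

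Ifi27l2a, a small mitochondrial membrane protein, was at 92.2, 86.8 and 74.3 CPM in female WT chow and 129, 105 and 120 in WT high-fat libraries, without overlap (0.48 ± 0.23, 1.0). Null libraries were at 143, 124 and 83.7 on chow and 111, 142 and 176 on the high-fat diet, which overlapped (0.29 ± 0.23, 0.963, and 0.11 without null high-fat library 3). It ran from 1.30 to 11.4 CPM in males. The rest of the effectors overlapped between most groups. Mx1, a dynamin-like GTPase gene, ran from 1.73 to 7.63 CPM in males and had 1 to 7 counts a library in females, below the filter. Mx2, annotated as a polymorphic pseudogene, ran from 7.60 to 16.5 CPM in males and 4.45 to 15.7 in females. Xaf1, which opposes inhibitors of apoptosis, ran from 9.41 to 21.9 and 5.88 to 19.99 CPM. Ifi35 ran from 21.3 to 54.5 and 26.9 to 55.2, and Parp14, a mono-ADP-ribosyltransferase, from 36.1 to 53.3 and 13.0 to 42.5. Trim30a was at 5.20 to 16.9 CPM in males, and in females 1 WT chow library was at 61.6, with the other 11 between 10.1 and 44.8.

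Isg15 is a ubiquitin-like protein, Herc6 its ligase in mice and Usp18 the protease that removes it and quenches receptor signalling. Isg15 was at 13.3, 8.34 and 7.60 CPM in male WT chow and 4.82, 6.34 and 3.79 in null chow libraries, without overlap (-0.96 ± 0.34, adjusted p = 0.213). Male high-fat libraries were at 11.1, 6.71 and 5.39 in WT and 6.93, 7.93 and 5.77 in null, and overlapped. In females it was at 20.8, 7.63 and 8.49 in null chow and 17.2, 25.9 and 32.4 in null high-fat libraries, which also overlapped. Usp18 was at 13.8, 11.6 and 13.2 CPM in male WT high-fat and 10.2, 10.8 and 6.54 in null high-fat libraries (-0.49 ± 0.27, 1.0, and -0.30 without null high-fat library 3), and ran from 8.48 to 23.9 in females. Herc6 ran from 11.3 to 29.0 CPM in males and 10.1 to 36.2 in females.

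The guanylate-binding proteins are large GTPases, strongly induced by interferon gamma, that coat vacuoles of intracellular pathogens. They gave 3 of the 6 members with the smallest p and no overlap for diet in null females. The 6 were picked for these properties, and the share of all genes without overlap is not given. Gbp6 and Gbp9 overlapped between diets there. Gbp6 was at 15.2, 4.94 and 11.7 CPM in null chow and 10.6, 17.1 and 42.6 in null high-fat libraries. Gbp9 was at 7.38, 8.08 and 6.065 and then 5.48, 12.03 and 14.3. Gbp3 (chromosome 3) was at 16.5, 11.2 and 14.2 CPM in female null chow and 25.4, 33.8 and 104 in null high-fat libraries, and at 20.4, 11.98 and 10.5 in WT chow and 27.0, 39.1 and 26.8 in WT high-fat libraries. All 6 high-fat libraries lay above all 6 chow libraries, with differences of 1.96 ± 0.47 in null (adjusted p = 0.963) and 1.12 ± 0.47 in WT (1.0). Without null high-fat library 3 the null difference was 1.08.

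Gbp7 was at 17.8, 14.4 and 18.2 CPM in female null chow and 35.2, 35.6 and 72.8 in null high-fat libraries (1.51 ± 0.37, 0.963, and 1.08 without library 3). Gbp2 was at 7.38, 3.59 and 6.87 and then 11.3, 8.33 and 56.2 in null, and at 3.71, 2.99 and 7.56 and then 9.27, 19.6 and 17.7 in WT. Neither Gbp2 pair overlapped, and the differences were 2.09 ± 0.68 in null (0.963, and 0.72 without library 3) and 1.67 ± 0.72 in WT (1.0). The Gbp2 difference in null thus shrank most without 1 library, whereas the other 2 null high-fat libraries of Gbp3 and Gbp7 also lay above every null chow library by a wide gap. On the high-fat diet the genotype difference of Gbp3 was 0.81 ± 0.44 (1.0) with all libraries and -0.054 without library 3.

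In males Gbp3 was at 8.56, 6.28 and 5.04 CPM in WT chow and 8.66, 14.6 and 13.4 in WT high-fat libraries, and Gbp7 at 14.6, 15.3 and 12.1 and then 21.5, 30.7 and 35.5. Both pairs were free of overlap and neither was called. In libraries labelled null both genes overlapped between diets. Gbp3 was at 15.1, 9.62 and 7.58 on chow and 19.3, 16.6 and 8.95 on the high-fat diet, and Gbp7 at 4.42, 19.7 and 16.8 and then 34.7, 32.2 and 17.0. Gbp2 ran from 4.55 to 11.6 CPM in males. Gbp6 ran from 7.60 to 25.8 CPM in males and 4.94 to 42.6 in females, and Gbp9 from 5.48 to 23.3 and 3.49 to 17.9. Gbp6 counts are uncertain, since 70.7% of its 50-base words occur in other genes, most in Gm43302.

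The immunity-related GTPases act with the guanylate-binding proteins on pathogen vacuoles. In males on chow all 6 lay below 0 in libraries labelled null, with a median of -1.02 and 4 at an unadjusted p under 0.05 (background 5.84%), and none called. Without null chow library 1 the median was -0.71, Iigp1 lay above 0 at 0.20, and 2 (Ifi47 and Irgm2) were at that threshold. The hepatocyte marker sums of these null libraries were also below the WT ones, at 43660 to 88300 against 115700 to 148100 CPM. The part of that difference in the GTPase levels was not tested. Ifi47 was at 20.5, 18.2 and 13.8 CPM in WT chow and 2.14, 11.9 and 7.39 in null chow libraries (-1.26 ± 0.44, adjusted p = 0.213). Irgm2 was at 12.3, 8.23 and 10.0 and then 2.41, 7.85 and 5.95 (-0.88 ± 0.34, 0.229). Neither pair overlapped, and in both the lowest value was in null chow library 1, without which the differences were -0.86 and -0.56.

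Irgm1, the regulator of the family, was at 50.9, 33.2 and 31.5 CPM in male WT chow and 8.56, 33.5 and 22.2 in null chow libraries, and Tgtp1 at 14.0, 6.93 and 3.33 and then 1.34, 3.55 and 3.33, both with overlap. Igtp ran from 0.803 to 4.67 CPM in males and was below the filter in females (0 to 8 counts). Male Irgm2 on the high-fat diet was at 7.60, 10.2 and 8.61 in WT and 6.81, 6.502 and 6.25 in null (-0.43 ± 0.34, 1.0). In males the symbols Igtp, Irgm1, Irgm2 and Ifi47 each stood in 2 rows, which were summed. Ifi47 had 0 counts in all 12 female libraries, so nothing is said of it there. Its exons overlap those of Olfr56 and of an antisense gene.

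In females these GTPases were high in null high-fat library 3. Tgtp1 was at 7.38, 2.25 and 2.02 CPM in null chow and 6.65, 7.86 and 96.2 in null high-fat libraries, and at 1.39, 2.495 and 2.94 in WT chow and 3.09, 26.6 and 5.77 in WT high-fat libraries. The WT groups did not overlap (2.34 ± 1.39, 1.0, and 0.93 without WT high-fat library 2), and 81.2% of the gene's 50-base words occur in other genes, mainly Tgtp2. Iigp1, which disrupts parasite vacuoles, was at 273, 283 and 241 CPM in WT chow, 350, 293 and 336 in null chow, 375, 535 and 286 in WT high-fat and 346, 414 and 882 in null high-fat libraries. Its null chow libraries lay above the WT chow ones (0.30 ± 0.31, 0.955). In males Iigp1 was at 119 CPM in null chow library 1 and between 286 and 622 in the other 11. Irgm2 in females ran from 0.463 to 28.3 and Irgm1 from 27.4 to 97.3 CPM, each highest in null high-fat library 3.

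Psmb8 and Psmb9 are catalytic subunits of the immunoproteasome, Tap1 carries its peptides into the endoplasmic reticulum for MHC class I, and Cxcl10 attracts activated T cells. The first 3 were almost without counts in males (at most 3, 3 and 6 in a library), where each symbol stood in 4 rows, and could not be tested there. Psmb9 in females was at 3.47, 1.80 and 4.04 CPM in null chow and 5.87, 13.9 and 21.1 in null high-fat libraries, without overlap (2.11 ± 0.62, adjusted p = 0.963, and 1.63 without library 3). WT libraries were at 12.5, 2.495 and 6.72 on chow and 7.72, 8.75 and 2.47 on the high-fat diet, which overlapped, and the interaction was 2.31 ± 0.87 (1.0, and 1.83 without library 3).

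Psmb8 was at 23.1, 16.0 and 12.2 CPM in female WT chow, 37.5, 41.2 and 20.2 in WT high-fat, 27.4, 18.4 and 23.1 in null chow and 21.9, 37.0 and 68.2 in null high-fat libraries. Both diet pairs overlapped. Tap1 ran from 2.02 to 17.4 CPM in females. Cxcl10 was at 1.74, 2.04 and 2.42 CPM in male null chow and 4.22, 4.45 and 2.98 in null high-fat libraries, without overlap (0.90 ± 0.29, 0.434), and ran from 0.499 to 13.6 in females, highest in null high-fat library 3.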

How the data were processed

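Liver RNA was sequenced in 24 libraries. The authors deposited raw read counts per gene symbol in 2 tables of 12 libraries, unnormalized. Per the submitters' processing notes, FastQC, Trimmomatic, GSNAP, Subread and edgeR were used with genome build GRCm38.p5; no source used here gives versions, settings or strand handling. Symbols in more than 1 row (1806 in males, 2 in females) were summed, and 25 symbols in each table had been turned into dates. Each table was fitted on its own with edgeR 4.0.16 (limma 3.58.1, R 4.3.3): filterByExpr, TMM scaling, 1 term per group, robust quasi-likelihood tests, Benjamini-Hochberg adjustment over all genes tested, threshold 0.05. All adjusted p-values are edgeR's unless DESeq2 (1.42.0) is named. Differences between sexes came from 1 fit of all 24 libraries. CPM values are counts scaled by library size and TMM factor; log2 levels used a prior count of 2. Errors beside log2 differences are standard errors.

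The members and gene lists were chosen with earlier results of these data known. Tests were given for members called, then up to 6 of smallest p whose libraries did not overlap, otherwise the 3 of smallest p. Some tests outside this rule are also given, such as those of Ifih1 for diet in WT males and Ifit3 for diet in males labelled null. Per-library levels of other members are given by role. Alternatives were other scaling (RLE), no filter, DESeq2, the first row of each symbol, only the 2 groups compared, the replicate block, a term for the 2 sides of the first principal component in females, and leaving out each library. Counts at an unadjusted p under each alternative, the test between sexes without female null high-fat library 3, and the gene lists without that library or male null chow library 1, were added after seeing the data. The labels do not say that replicate numbers pair libraries. Over genes, same-numbered libraries deviated together in every pair for diet in WT only (r of 0.110 to 0.127 in males, 0.139 to 0.564 in females); the block there changed no member's call. The fits were tested on simulated data, and 1 gene of the pathway is not reported here. Positions are from GENCODE on GRCm38 and promoters from RefSeq on GRCm38.p6.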

Additional observations from a re-analysis of the deposited data

How the results depend on the processing

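For genotype on chow in males, edgeR called 1 member; the replicate block called 0, a fit of the 2 groups compared 0, DESeq2 2, and leaving out 1 library 0 to 2. Without null chow library 2, Ifi47 was also called (-1.85, adjusted p = 0.0449). The adjusted p of Ifit1bl1 was 0.123 with the replicate block, 0.502 with only its 2 groups, 0.0381 with RLE scaling and 0.000303 without the filter. For diet, DESeq2 called 1 member in WT males and 2 in males labelled null, where edgeR called 0. Without the filter on low counts, edgeR called 7 members for diet in null females (Gbp2, Gbp3, Gbp7, Ifit1bl1, Ifit3, Psmb9 and Zbp1) and 1 each in 3 of the tests between sexes: Ifit1bl1 for genotype on chow and for diet in null, Tgtp1 for diet in WT. The cause was not tested, and the shares of all genes called under these settings are not given.

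Counts of members higher at an unadjusted p under 0.05 moved more, and the shares of all genes in the same fits are not given beside them. In WT males 10 became 1 to 11 with 1 library left out. In males labelled null 8 became 4 to 12, and 3 with only the 2 groups compared. In WT females 5 became 0 to 16, and 16 without the filter. In null females 19 became 3 to 22, and the members' median of 0.79 became 0.36 to 0.98; the lowest values of both came without null high-fat library 3. The median of the female interaction, 0.28, became -0.13 to 0.49. The genotype difference of Gbp3 in females on the high-fat diet, 0.81, became -0.054 to 1.16 with 1 library left out, the lowest without that library. Of 652 alternative values for named members, 651 kept their direction and 18 changed their call. Female libraries held 2005120 to 2661836 counts each, so members at a few CPM rested on few counts, and a difference not called there was not shown to be absent.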
